A study of Mus musculus with 16 samples.

Results

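Genes of early lymphoid and B-cell differentiation were followed in sorted blood progenitors of mouse bone marrow. They were chosen by symbol as *Dntt*, *Rag1*, *Rag2*, *Il7r*, *Ebf1*, *Pax5*, *Vpreb1*, *Cd79a*, *Cd79b* and *Blnk*, and these 10 were all found among the 54347 genes of the count table. RNA was sequenced from LSKs (Lin-Sca-1+c-Kit+ cells, which hold stem cells and multipotent progenitors) and from GMPs (Lin-Sca-1-c-Kit+Cd16/32+ cells, the granulocyte-monocyte progenitors). Both came from URE mice, in which the upstream regulatory element of *Spi1*, the gene of the transcription factor PU.1, is deleted on both alleles and in every cell type of the mouse, and from WT littermates of the C57BL/6 background. All mice were 8 to 12 weeks old, no treatment is named, and each of the 4 groups had 4 libraries, 1 per mouse. The lineage stain of the sort removed cells positive for lineage proteins, among them Cd45r, Cd3, Cd4, Cd8, Ter119 and Gr1, so B cells and T cells that carry these proteins were gated out.

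Lymphoid priming is the low-level transcription of lymphoid genes in multipotent progenitors, before any of them is committed. It is known to start with *Flt3*, *Dntt*, the recombination-activating genes and *Il7r* in the most lymphoid-biased LSKs, and is followed, further downstream, by *Ebf1* and *Pax5*, which establish B-cell identity. The B-cell receptor and its precursor then assemble from antibody chains, the surrogate light chain that *Vpreb1* encodes in part, and the signalling pair of *Cd79a* and *Cd79b*, with *Blnk* as the adaptor inside the cell. PU.1 is required for B cells to form, while GMPs are committed to myeloid fates.

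Of these genes, *Dntt*, *Rag1*, *Rag2*, *Cd79b* and *Blnk* were lower in URE LSKs than in WT LSKs, by 2.29-fold for *Cd79b*, 3.95-fold for *Dntt*, 5.70-fold for *Blnk* and 15.7-fold for *Rag2* (edgeR, n = 4 per group), while *Rag1* had 4 counts in all URE LSK libraries and 283 in WT LSKs. In GMPs, *Dntt*, *Cd79b*, *Blnk* and *Il7r* were lower in URE. With edgeR none was called higher in URE in either cell type. *Vpreb1* in GMPs was the 1 gene above 0 with an unadjusted p under 0.05 and was called by DESeq2. Between LSKs and GMPs of WT mice, *Dntt*, *Rag1*, *Rag2*, *Il7r*, *Cd79a* and *Blnk* were lower in GMPs, whereas *Cd79b* was at similar levels in both. *Vpreb1* was the exception among the genes, with its highest level in URE GMPs. *Pax5* was detected with 10 counts in 2 WT LSK libraries and nowhere else.

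Levels are given as CPM, counts scaled to a common library size with edgeR's TMM factors over all 16 libraries. Total counts lay between 20028302 and 29128858 per library, and 3 counts over a group, the limit that a count of 0 allows, equalled 0.0290 CPM in URE LSKs, 0.0345 in WT GMPs and 0.0389 in URE GMPs. No molecular identifiers were used, so intervals cover counting error only. A gene was called where its adjusted p (edgeR quasi-likelihood, Benjamini-Hochberg over all genes tested) was under 0.05 and its fold above 1.5. *Spi1* itself matched the labels in every library. It lay between 1.13 and 4.44 CPM in URE LSKs against 69.5 to 165 in WT LSKs (log2 fold change -5.39 ± 0.47 SE, adjusted p = 0.000266), and between 15.6 and 28.6 CPM in URE GMPs against 84.8 to 181 in WT GMPs (-2.73 ± 0.30, adjusted p = 0.000950). Of 7 LSK markers, 0 were called between genotypes by edgeR in either cell type (1 in LSKs and 2 in GMPs had an unadjusted p under 0.05, and DESeq2 called 1 in each), and all 6 GMP markers were higher in GMPs than in LSKs of both genotypes. Between genotypes, the GMP markers *Prtn3* (-2.48) and *Elane* (1.15) were called in LSKs, and *Ms4a3* (-1.83) and *Fcgr3* (1.34) in GMPs, where 4 of the 6 were higher in URE at an unadjusted p under 0.05 (median 0.93). In bulk RNA, fewer cells that express a gene and less of its RNA per cell cannot be told apart. The 4 pairwise comparisons share libraries, so their results are not independent of each other.

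The loci are given first, because several of the genes lie beside each other or share exons with other genes. *Dntt* (ENSMUSG00000025014) lies at chr19:41029275-41059525 on the plus strand of GRCm38, and *Blnk* (ENSMUSG00000061132) is the next protein-coding gene on its lower-coordinate side, at chr19:40928927-40994535 on the minus strand, 34739 bases away. The 2 genes are transcribed away from each other. *Rag1* (ENSMUSG00000061311, chr2:101638282-101649501, minus strand) and *Rag2* (ENSMUSG00000032864, chr2:101624718-101632529, plus strand) converge, with 5752 bases between their ends. *Il7r* (ENSMUSG00000003882) is at chr15:9505788-9530176 on the minus strand. For 9 of the 10 genes RefSeq's table of GRCm38.p6 gave the 300 bases around the annotated start, 250 before it and 50 after it. *Cd79b* was not among them. Those of the 5 genes whose levels differed most between WT and URE LSKs are printed here, 5′ to 3′ on the gene's own strand. Capitals mark AGGAAGT, a sequence of the kind that ETS factors such as PU.1 bind, and TGTGGT, the RUNX motif, on either strand (ACTTCCT and ACCACA when read on the other).
Dntt, chr19:41029025-41029324, plus strand: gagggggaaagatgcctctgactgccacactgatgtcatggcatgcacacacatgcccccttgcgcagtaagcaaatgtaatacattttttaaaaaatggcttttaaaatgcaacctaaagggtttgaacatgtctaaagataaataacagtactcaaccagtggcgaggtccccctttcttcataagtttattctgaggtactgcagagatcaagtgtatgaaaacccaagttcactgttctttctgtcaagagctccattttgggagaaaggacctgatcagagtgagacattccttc
Blnk, chr19:40994172-40994471, minus strand: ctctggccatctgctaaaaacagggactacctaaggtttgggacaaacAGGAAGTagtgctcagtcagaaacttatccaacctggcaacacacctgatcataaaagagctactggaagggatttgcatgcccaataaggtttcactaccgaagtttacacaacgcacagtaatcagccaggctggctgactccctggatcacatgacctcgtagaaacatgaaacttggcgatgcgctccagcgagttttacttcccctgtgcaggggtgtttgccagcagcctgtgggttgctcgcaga
Rag1, chr2:101649483-101649782, minus strand: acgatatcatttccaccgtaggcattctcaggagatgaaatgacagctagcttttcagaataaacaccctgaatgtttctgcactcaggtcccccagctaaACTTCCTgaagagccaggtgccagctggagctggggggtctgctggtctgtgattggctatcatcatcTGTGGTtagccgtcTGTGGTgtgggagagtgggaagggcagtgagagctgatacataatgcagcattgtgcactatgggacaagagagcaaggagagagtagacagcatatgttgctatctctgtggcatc
Rag2, chr2:101624462-101624761, plus strand: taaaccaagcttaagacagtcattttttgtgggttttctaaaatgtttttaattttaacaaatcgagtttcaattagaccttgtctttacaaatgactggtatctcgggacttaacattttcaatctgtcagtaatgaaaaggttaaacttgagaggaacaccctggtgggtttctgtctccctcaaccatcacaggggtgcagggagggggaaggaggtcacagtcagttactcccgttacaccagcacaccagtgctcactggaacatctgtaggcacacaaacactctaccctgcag
Il7r, chr15:9529827-9530126, minus strand: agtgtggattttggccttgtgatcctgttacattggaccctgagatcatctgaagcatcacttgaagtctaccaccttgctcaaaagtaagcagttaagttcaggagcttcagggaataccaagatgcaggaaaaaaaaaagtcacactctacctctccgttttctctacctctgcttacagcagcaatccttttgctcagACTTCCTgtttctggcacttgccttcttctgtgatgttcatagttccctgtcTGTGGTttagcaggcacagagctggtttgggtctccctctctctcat

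The *Blnk* window held 1 match to AGGAAGT. The *Rag1* window held 1 match to AGGAAGT and 2 to TGTGGT, and *Il7r* had 1 of each. *Dntt* and *Rag2* had neither. Among all 9 genes with a window, AGGAAGT was found in 4 (*Rag1*, *Il7r*, *Cd79a* and *Blnk*) and TGTGGT in 3 (*Rag1*, *Il7r* and *Ebf1*), against 9.35% and 16.8% of the 32851 promoters of the table. The shorter ETS core GGAA is in 96.0% of all promoters and therefore sets none apart. *Cd79a*, which carries AGGAAGT, was not called between genotypes in LSKs and did not pass the filter in GMPs. *Rag1* and *Blnk*, which carry it, were lower in URE LSKs, and so were *Dntt* and *Rag2*, which do not carry it in this window. The part of these motifs in the genotype differences was not tested.

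*Dntt* encodes terminal deoxynucleotidyl transferase, the polymerase that adds bases without a template at the joints of antigen receptor genes. It was the most abundant of the 10 genes in LSKs. WT LSKs had 467, 606, 415 and 282 CPM in replicates 1 to 4 (442 ± 134, mean ± SD, n = 4), and URE LSKs had 102, 213, 60.7 and 81.5 CPM. Every WT library was above every URE library. The log2 fold change was -1.98 ± 0.40 (SE, adjusted p = 0.0175). In GMPs *Dntt* also separated the genotypes, with 27.0, 19.5, 45.1 and 32.7 CPM in WT and 12.8, 6.32, 13.6 and 9.23 CPM in URE (-1.57 ± 0.35, adjusted p = 0.0230). The lowest WT GMP library was above the highest URE GMP library. From LSKs to GMPs *Dntt* fell by 3.84 ± 0.33 on the log2 scale in WT (adjusted p = 9.72e-05) and fell by 3.47 ± 0.43 in URE (adjusted p = 0.000742). The 4 group means stood in the order WT LSKs, URE LSKs, WT GMPs and URE GMPs, and no step of this order had overlapping libraries. The genotype effect did not pass the test for a difference between the cell types (interaction 0.39 ± 0.53, adjusted p = 0.906). Leaving out single libraries gave log2 values between -2.46 and -1.77 in LSKs, and the adjusted p rose to 0.0577 at most, which ended the call without URE replicate 1, URE replicate 4 or WT replicate 2. In GMPs the call ended without URE replicate 4 or WT replicate 4, with adjusted p up to 0.0797.

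*Rag1* and *Rag2* encode the 2 subunits of the recombinase that cuts antigen receptor genes. *Rag1* had 2.85, 5.46, 0.780 and 0.443 CPM in WT LSKs, and these 4 libraries spanned a wide range. URE LSKs had 4 counts in replicate 1, equal to 0.156 CPM, and 0 counts in the other 3 libraries. The pooled level in WT LSKs was 65.7 times that in URE LSKs (95% Poisson interval 25.4 to 243), and the difference was called (log2 fold change -5.81 ± 1.25, adjusted p = 0.0238). It was not called without any 1 of URE replicates 2, 3 or 4 or WT replicates 1 or 2, where the adjusted p was 0.0525 to 0.0706. GMPs held almost no *Rag1*, with 5 counts over the WT libraries and 0 over the URE libraries, too few to pass the filter. The pooled level in WT LSKs was 44.1 times that in WT GMPs (interval 18.7 to 137, log2 fold change -5.26 ± 1.03, adjusted p = 0.00494), and at least 65.3-fold higher than in URE GMPs at a floor of 3 counts over that group.

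*Rag2* was more abundant. It was at 11.9, 26.8, 13.8 and 9.90 CPM in WT LSKs and at 0.935, 1.46, 1.09 and 0.543 CPM in URE LSKs, so that the highest URE library stayed far below the lowest WT library. The difference had the smallest adjusted p of the 10 genes in LSKs (log2 fold change -3.97 ± 0.44, adjusted p = 0.000925) and was called in every fit that left out a library. In GMPs the gap was narrower. WT GMPs had 3.38, 4.78, 4.25 and 4.67 CPM and URE GMPs had 1.01, 3.13, 1.95 and 1.80 CPM, groups that did not overlap but whose difference missed the threshold (-1.13 ± 0.36, adjusted p = 0.0952). It was called with the replicate number as a block (-1.20 ± 0.30, adjusted p = 0.0293), by DESeq2 (adjusted p = 0.0255) and without URE replicate 2 (adjusted p = 0.0491), among alternatives with adjusted p up to 0.587. WT mice had less *Rag2* in GMPs than in LSKs (-1.88 ± 0.34, adjusted p = 0.00343), whereas in URE mice the mean was 1.97 ± 0.88 CPM in GMPs and 1.01 ± 0.38 in LSKs, with overlapping libraries (0.92 ± 0.47, adjusted p = 0.200). In the edgeR fit without a block, *Rag2* was the only one of the genes whose genotype effect differed between LSKs and GMPs (interaction 2.83 ± 0.55, adjusted p = 0.0218). The replicate block also called *Cd79b* and *Vpreb1*, and DESeq2 also called *Vpreb1*. For *Rag2* the interaction was positive. The sign states that the deficit in URE was larger in LSKs than in GMPs. Leaving out each of the 16 libraries gave 2.44 to 3.07 with adjusted p of 0.0180 to 0.0490. *Spi1* itself had an interaction of 2.64 (adjusted p = 0.0218).

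Part of what was counted as *Rag2* may belong to another gene. The gene *B230118H07Rik* overlaps *Rag2* on the opposite strand over 208 exonic bases, 6.07% of the exons of *Rag2*. The libraries are unstranded, so reads in these bases cannot be assigned to 1 of the genes by strand. It also shares 80 exonic bases with *Rag1*, on the same strand. *B230118H07Rik* was at 40.7 ± 13.9 CPM in URE LSKs, 48.3 ± 10.7 in WT LSKs, 44.4 ± 12.1 in URE GMPs and 51.5 ± 18.9 in WT GMPs. It was not called in any comparison, and its part in the low *Rag2* values of URE LSKs and of GMPs was not tested.

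**Figure D1:**
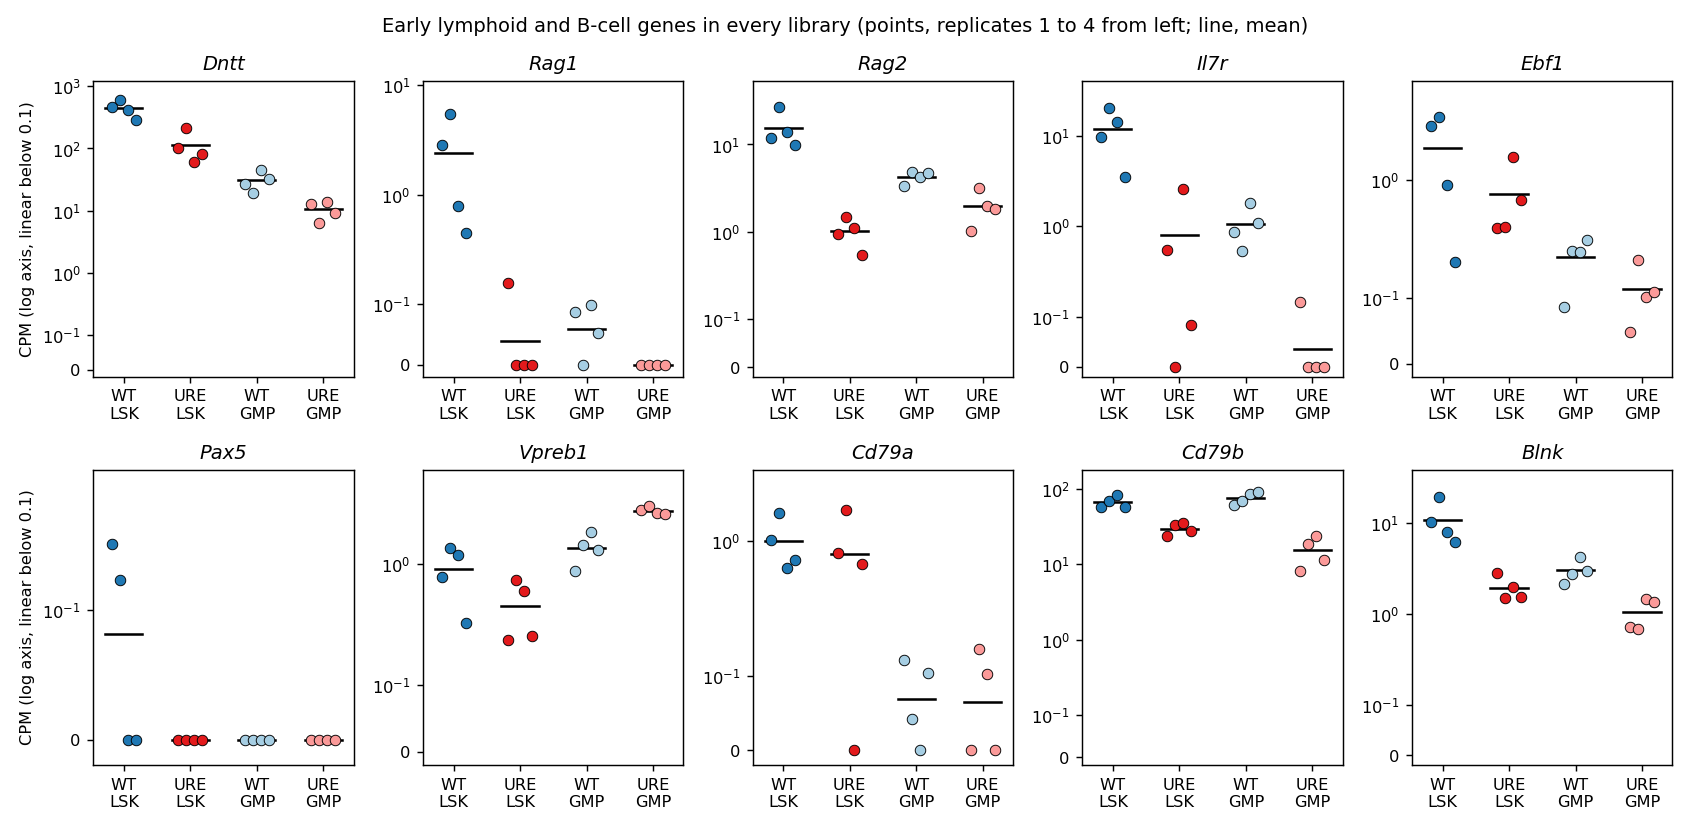
CPM of each of the 10 genes in every library (y axis, logarithmic above 0.1 CPM and linear below it, with 0 shown), with points for replicates 1 to 4 of WT LSKs, URE LSKs, WT GMPs and URE GMPs from left to right and a line at the mean of each group. *Dntt* steps down through all 4 groups, *Rag2* and *Blnk* separate WT LSKs from all other groups, *Cd79b* stays at the WT level in WT GMPs, and *Vpreb1* is highest in URE GMPs, at 2.59 to 2.98 CPM.

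*Il7r* encodes the alpha chain of the receptor for interleukin-7, the cytokine on which early mouse lymphocytes depend. WT LSKs had 9.80, 20.5, 14.4 and 3.54 CPM. URE LSKs had 0.545, 0, 2.61 and 0.0835 CPM, all below the lowest WT library but uneven among themselves, since 62 of their 78 counts came from replicate 3. The difference was large but missed the threshold (log2 fold change -3.93 ± 1.16, adjusted p = 0.0929). It was called with the replicate number as a block (-4.64 ± 0.93, adjusted p = 0.0182), in a joint fit of all 16 libraries (adjusted p = 0.0306), in replicates 1 and 4 alone (adjusted p = 0.0367) and without URE replicate 3 (-5.88, adjusted p = 0.0172). In GMPs *Il7r* was at 0.866, 0.540, 1.81 and 1.09 CPM in WT, while URE had 3 counts in replicate 1 and 0 in the other 3 libraries. The pooled ratio was 26.9 (interval 8.93 to 133), and the difference was called (-4.62 ± 0.90, adjusted p = 0.0131), also in each fit that left out a library (adjusted p 0.0162 to 0.0489). WT GMPs had less *Il7r* than WT LSKs (-3.50 ± 0.59, adjusted p = 0.00243). *Il7r* did not pass the filter between URE GMPs and URE LSKs, was called lower in GMPs there in the joint fit and was not called in a fit of every gene with a count. The pooled ratio of URE LSKs to URE GMPs was 19.4 (interval 6.39 to 96.0). Most of it rests on 1 library, replicate 3, with 62 of the 78 LSK counts, a spread between mice that the interval does not cover.

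The 2 transcription factors of the B-cell programme were hardly expressed. *Ebf1*, which opens that programme, was at 2.85, 3.42, 0.897 and 0.201 CPM in WT LSKs and 0.390, 0.397, 1.56 and 0.668 CPM in URE LSKs. The groups overlapped, since WT replicate 4 had the lowest value of all 8 libraries, and the difference did not pass the test (-1.32 ± 0.81, adjusted p = 0.556). GMPs had 0.223 ± 0.096 CPM in WT and 0.118 ± 0.067 in URE, from 19 and 9 counts, too few to pass the filter in the pairwise comparisons that include GMPs. With filters that kept it, *Ebf1* was called lower in WT GMPs than in WT LSKs, by DESeq2, the joint fit, a fit of every gene with a count and one of genes with a mean CPM of at least 1, and it was called lower in URE GMPs than in URE LSKs by DESeq2 and the joint fit. Some fits that tested it did not call it, among them that of every gene with a count in URE and those in WT without GMP replicate 1 or 2. Its interaction was tested and not called (0.41 ± 1.21, adjusted p = 0.985). *Pax5*, which maintains B-cell identity, had 6 counts in WT LSK replicate 1 and 4 in replicate 2, equal to 0.192 and 0.134 CPM. It was at 0 in the other 14 libraries, so that the other 3 groups could hold no more than the limits given above. *Pax5* shares 7.18% of its exons with a transcript on the opposite strand, *5730488B01Rik*, so even these counts are uncertain.

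The genes of the receptor complex did not move as one. *Vpreb1*, 1 of the 2 parts of the surrogate light chain, was low in LSKs, with 0.768, 1.34, 1.17 and 0.322 CPM in WT and 0.234, 0.728, 0.589 and 0.251 CPM in URE (-1.02 ± 0.59, adjusted p = 0.520). In GMPs it was at 0.866, 1.41, 1.81 and 1.30 CPM in WT and at 2.75, 2.98, 2.61 and 2.59 CPM in URE. All 4 URE GMP libraries were above all WT GMP libraries, a difference that missed the threshold with edgeR (+1.01 ± 0.32, adjusted p = 0.0911) and passed it with DESeq2 (adjusted p = 0.0206). Within URE mice *Vpreb1* was higher in GMPs than in LSKs by 2.54 ± 0.47 on the log2 scale (adjusted p = 0.00464). In that comparison it passed the filter through URE GMPs alone. Within WT mice the difference was 0.56 ± 0.46 (adjusted p = 0.412). The interaction missed the threshold (2.01 ± 0.65, adjusted p = 0.171) and passed it with the replicate block (2.07 ± 0.55, adjusted p = 0.0389) and with DESeq2 (1.98, adjusted p = 0.0478).

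Of the 10 genes, *Vpreb1* shares the largest part of its 31-base words with other genes (36.6%), which makes its counts uncertain. Its transcripts share 30.2% of their 31-base words with the near-identical copy *Vpreb2*, and 9.01% of its exons lie opposite exons of *Top3b*, a topoisomerase gene. *Vpreb2* had 57 counts in WT LSKs and 0 in all 12 other libraries, which is at least 17.6-fold higher in WT than in URE LSKs at a floor of 3 counts over the group. *Top3b* was at 140 ± 11 CPM in URE LSKs, 112 ± 1.32 in WT LSKs, 223 ± 30.4 in URE GMPs and 172 ± 33.8 in WT GMPs, with its highest mean in the group where *Vpreb1* was highest, and it was higher in GMPs than in LSKs of both genotypes (0.61 ± 0.17, adjusted p = 0.0231 in WT and 0.63 ± 0.15, adjusted p = 0.0163 in URE). Its part in the *Vpreb1* values was not tested. *Igll1*, the other part of the surrogate light chain and the neighbour of *Vpreb1* at 4417 bases, had 115 counts in URE GMPs and 0 in URE LSKs, at least 51.4-fold higher at the same floor, with 95 counts in WT GMPs and 31 in WT LSKs. Between the genotypes *Igll1* did not pass the test in GMPs (0.43 ± 0.45, adjusted p = 0.690).

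**Figure D2:**
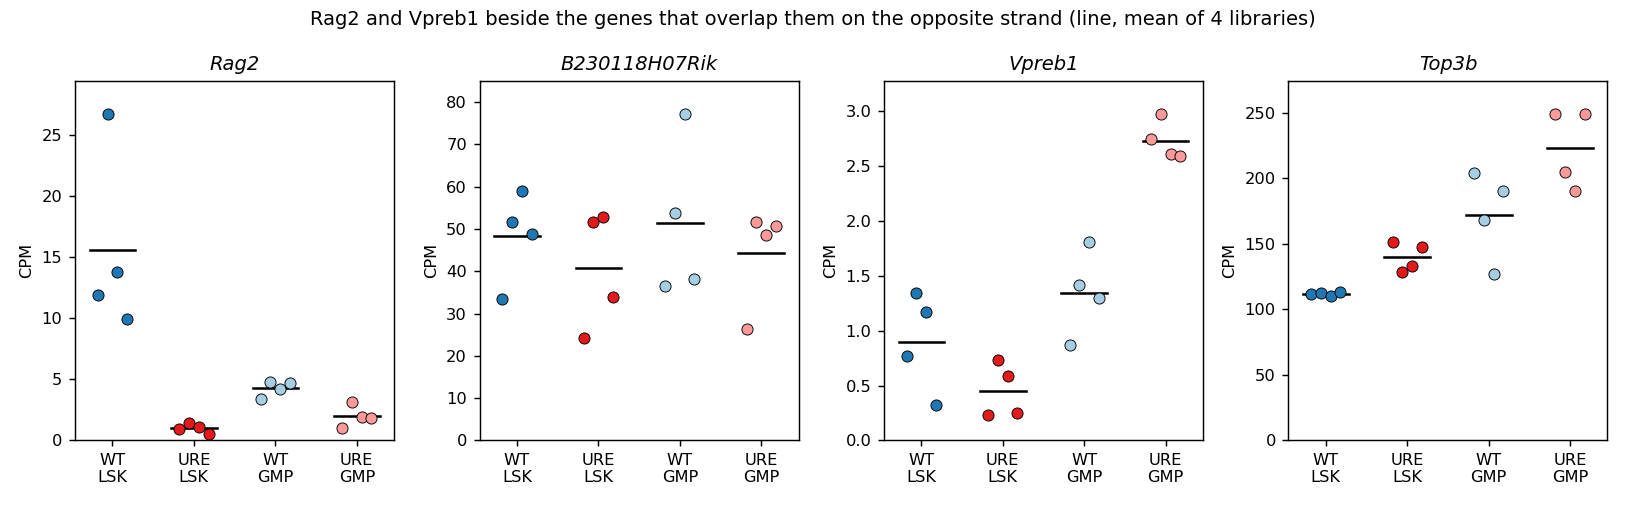
CPM (y axes, linear from 0, a separate scale in each panel) of *Rag2* and *Vpreb1* and of the genes that overlap them on the opposite strand, *B230118H07Rik* and *Top3b*, in all 16 libraries, with a line at each group's mean. *Rag2* is high in WT LSKs alone while *B230118H07Rik* is at like levels in the 4 groups, and *Vpreb1* and *Top3b* both have their highest mean in URE GMPs (2.73 and 223 CPM).

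*Cd79a* and *Cd79b* encode the signalling pair of the B-cell receptor, Ig-alpha and Ig-beta, and they differed widely in level and pattern. Per kilobase of exon, *Cd79b* was at 46.2 CPM in WT LSKs and 52.9 in WT GMPs, and *Cd79a* at 0.683 and 0.0472. *Cd79b* had 57.3, 68.7, 81.1 and 57.2 CPM in WT LSKs and 23.6, 32.6, 34.7 and 27.3 CPM in URE LSKs (-1.19 ± 0.21, adjusted p = 0.00850). In GMPs the gap was 61.1, 68.2, 84.7 and 88.7 CPM in WT against 8.15, 18.5, 23.4 and 11.3 CPM in URE (-2.31 ± 0.34, adjusted p = 0.00349). The genotypes were apart in both cell types, and the calls held in every fit that left out a library. WT mice had *Cd79b* at similar levels in GMPs and LSKs (0.18 ± 0.19, adjusted p = 0.526, overlapping libraries). In URE mice every GMP library was below every LSK library, which missed the threshold (-0.99 ± 0.33, adjusted p = 0.0624) and passed it with the replicate block (-1.09 ± 0.21, adjusted p = 0.00435), in the joint fit, in replicates 1 and 4 alone and without URE GMP replicate 3. The interaction was called with the block alone among the fits tried, at -1.14 ± 0.39 without it (adjusted p = 0.200) and -1.22 ± 0.26 with it (adjusted p = 0.0149).

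*Cd79a* did not separate the genotypes. It was at 1.02, 1.61, 0.624 and 0.725 CPM in WT LSKs and 0.818, 1.69, 0 and 0.668 CPM in URE LSKs (-0.34 ± 0.87, adjusted p = 0.956), and without URE replicate 3, the library at 0, the sign turned to 0.07. GMPs had 6 counts over the WT libraries and 5 over the URE libraries. The pooled level in WT LSKs was 14.8 times that in WT GMPs (interval 6.60 to 41.2, log2 fold change -3.77 ± 0.66, adjusted p = 0.00293). In URE mice the ratio of LSKs to GMPs was 13.1 (interval 5.41 to 41.4). The gene did not pass the filter there, but was called lower in GMPs by DESeq2, in the joint fit, in replicates 1 and 4 alone and without URE LSK replicate 3, and was not called in a fit of every gene with a count. Of its 31-base words, 12.2% are shared with the predicted gene *Gm32220*.

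*Blnk* encodes the adaptor that links the activated receptor to phospholipase C. WT LSKs had 10.3, 19.5, 7.96 and 6.24 CPM, and URE LSKs had 2.84, 1.49, 1.98 and 1.55 CPM. The groups were well apart (-2.51 ± 0.42, adjusted p = 0.00708), and the call held in every fit that left out a library. In GMPs *Blnk* was at 2.12, 2.78, 4.30 and 3.01 CPM in WT and 0.723, 0.679, 1.49 and 1.35 CPM in URE, again without overlap (-1.53 ± 0.40, adjusted p = 0.0485). That call was marginal, since 7 of the 8 fits that left out a library lost it, all but the one without URE replicate 3, with adjusted p up to 0.138. WT GMPs had less *Blnk* than WT LSKs (-1.86 ± 0.40, adjusted p = 0.00838). In URE mice the libraries of GMPs lay below those of LSKs, but the difference missed the threshold (-0.93 ± 0.44, adjusted p = 0.170).

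The share of these genes called was set against that of all genes. In LSKs, 9 of the 10 genes had enough counts for the test and 5 were called, all lower in URE, against 6.14% of the 15154 genes tested, of which 3.76% were called lower. *Rag1* and *Il7r* passed the filter through WT LSKs alone. Groups did not overlap for 6 of the 10, all lower in URE, against 6.90% of all genes (5.67% were apart and higher). In GMPs, 6 of the 10 were tested and 4 called, all lower in URE, against 8.30% of 13829 genes, of which 3.63% were called lower. *Il7r* passed the filter through WT GMPs alone, so its call was fixed in part by that choice. Groups did not overlap for 5 lower genes (6.98% of all genes) and for *Vpreb1* as the 1 higher (7.85%).

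**Figure D3:**
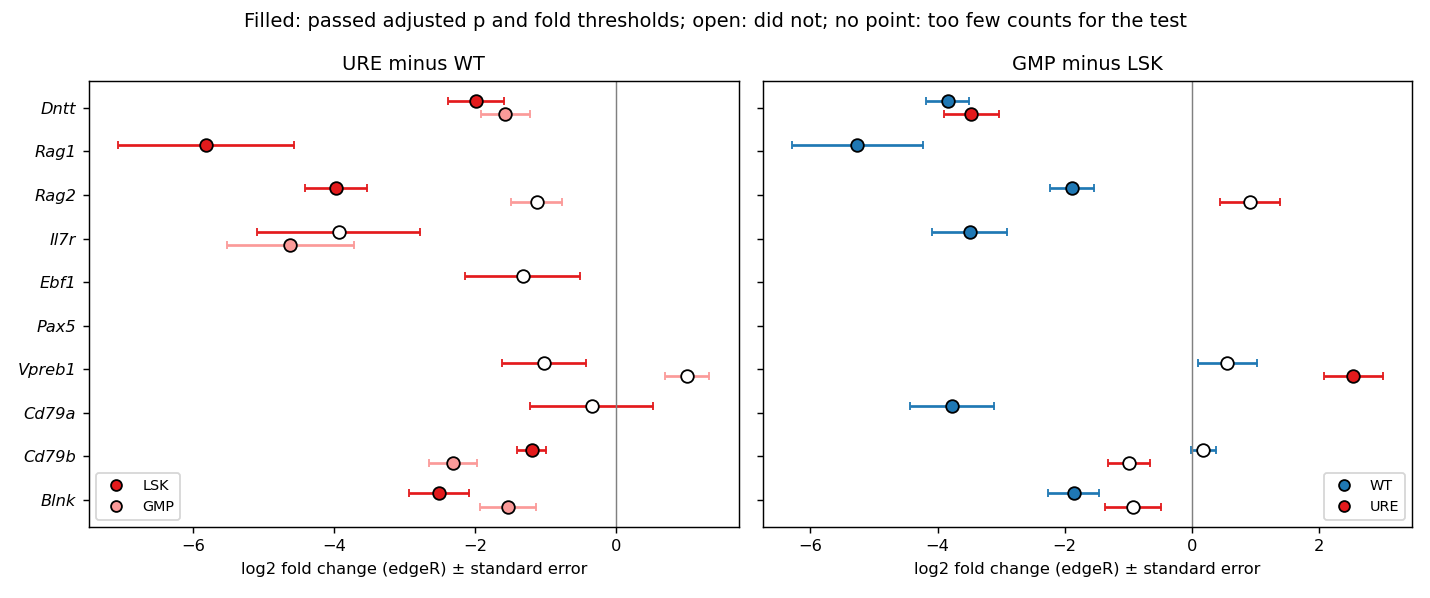
Log2 fold changes with their standard errors from edgeR (x axes) for URE against WT in LSKs and GMPs (left) and for GMPs against LSKs in WT and URE mice (right), with 1 line per gene. Filled points passed both thresholds, open points did not, and a missing point had too few counts for the test. All points on the left lie below 0 but that of *Vpreb1* in GMPs at 1.01.

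The same was done for GMPs against LSKs. Of the 10 genes, 8 were tested and 6 called lower in GMPs, beside 27.3% of 14767 genes called and 15.8% called lower. *Rag1* and *Cd79a*, among the 6, passed the filter through WT LSKs alone. In URE mice 5 were tested, and *Dntt* was called lower and *Vpreb1* higher, beside 21.8% of 14395 genes called, 12.6% lower and 9.20% higher. There *Vpreb1* passed the filter through URE GMPs alone, so its call was fixed in part by that choice. Groups did not overlap for 6 of the genes in WT, all lower (17.6% of all genes), and in URE for 4 lower (14.3%) and 1 higher (12.3%, with 26.6% in either direction). *Ebf1*, among these 4, did not pass the filter there, while the shares are over the genes that did. Of the 9 genes tested for an interaction, *Rag2* was called, beside 1.22% of 15935 genes. The smallest p that an exact permutation test of 4 against 4 libraries can give is 0.0286, two-sided, and every pair of groups without overlap reached it.

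The order of the group means was compared with the spread of the libraries. WT LSKs were highest for 8 of the 10 genes, the exceptions being *Cd79b* and *Vpreb1*. For *Rag1*, *Il7r* and *Blnk* the mean of WT GMPs came next, at 0.0590, 1.08 and 3.05 CPM, ahead of URE LSKs at 0.0390, 0.809 and 1.96 CPM, but the libraries of these 2 groups overlapped for all 3 genes. For *Rag2*, WT GMPs were next at 4.27 CPM, above URE GMPs and URE LSKs without overlap. URE GMPs were lowest for 7 of the 9 genes detected in more than 1 group, and URE LSKs for *Rag2* and *Vpreb1*.

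The spread among WT LSKs was shared. Replicate 2 had the highest value for 8 of the 10 genes and replicate 4 the lowest for 8, and the highest *Rag1* value was 12.3 times the lowest. In the other groups no replicate was highest for more than 5 genes. The fold changes were also read from fewer libraries. In replicates 1 and 4 alone, the log2 fold changes of *Dntt*, *Rag2*, *Cd79b* and *Blnk* were -2.06, -3.91, -1.20 and -1.95, and in replicates 2 and 3 alone -1.92, -4.00, -1.19 and -3.00. Of the calls in LSKs, those of *Blnk* and *Rag1* were lost in the former and those of *Dntt* and *Cd79b* in the latter, and *Rag2* was called in both. In GMPs those of *Dntt*, *Cd79b* and *Blnk* were -1.45, -2.97 and -1.32 in the former and -1.72, -1.89 and -1.72 in the latter, where 0 of the 10 genes were called. In the former *Dntt* and *Cd79b* were called.

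The genes beside the called ones were compared in LSKs. *Zfp518a*, beyond *Blnk*, had a log2 fold change of 0.00 ± 0.30 in LSKs, and *Traf6*, beyond *Rag1*, had 0.01 ± 0.27. *Capsl* and *Spef2*, on either side of *Il7r*, had -0.77 ± 0.29 (unadjusted p = 0.0260, adjusted p = 0.217) and -0.52 ± 0.32 (adjusted p = 0.563). Both were lower in URE in 4 of 4 same-numbered pairs, as *Il7r* was, and for *Capsl* every URE library was below every WT library. None of these neighbours was called between genotypes in LSKs or GMPs.

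Other genes of lymphoid priming were compared as a list of 16. Beside each list stands the share of all genes called, 6.14% in LSKs and 8.30% in GMPs. In LSKs 15 were tested and 5 called lower in URE, with 0 called higher by edgeR, where 1 had an unadjusted p under 0.05 and DESeq2 called 1 (median -0.27). *Mef2c*, a factor that favours lymphoid over myeloid fate, fell from 420 ± 89.0 to 132 ± 11.6 CPM (-1.70 ± 0.18, adjusted p = 0.000659). *Satb1*, a chromatin organiser, fell from 99.6 ± 19.0 to 31.5 ± 4.77 CPM (adjusted p = 0.00155). *Flt3*, the receptor that marks lymphoid-primed progenitors, fell from 752 ± 350 to 242 ± 90.2 CPM (-1.67 ± 0.38, adjusted p = 0.0295), and *Cd27* from 268 ± 35.0 to 136 ± 24.6 CPM (-1.01 ± 0.18, adjusted p = 0.00921). In GMPs 14 were tested, 3 called lower and 1 higher (5 and 2 by DESeq2, median -0.33). The lower ones were *Flt3* (-2.78 ± 0.43, adjusted p = 0.00451), *Cd27* (-2.08 ± 0.31, adjusted p = 0.00380) and *Mef2c* (adjusted p = 0.00784). *Lax1*, an adaptor that dampens lymphocyte signalling, rose from 1.1 ± 0.18 to 5.92 ± 1.46 CPM (2.41 ± 0.31, adjusted p = 0.00200). *Ly6d*, which marks B-cell-biased lymphoid progenitors, was at 7.16 ± 6.47 CPM in WT LSKs and 1.97 ± 1.41 in URE LSKs and was not called. *Ccr9*, a chemokine receptor of lymphoid progenitors, lay the other way, at 7.33 ± 5.99 CPM in WT LSKs and 31.1 ± 23.7 in URE LSKs, called higher by DESeq2 and not by edgeR.

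The partners of the recombinase in V(D)J joining were called at about the share of all genes. Of 12 genes of that list, all tested, 1 was called in LSKs and the same 1 in GMPs, and it was higher in URE. This was *Polm*, a polymerase related to *Dntt* that fills ends during joining, at 3.69 ± 1.53 CPM in URE LSKs against 0.713 ± 0.136 in WT LSKs (2.34 ± 0.44, adjusted p = 0.0133) and at 6.60 ± 3.06 CPM in URE GMPs against 1.08 ± 0.79 in WT GMPs (2.61 ± 0.65, adjusted p = 0.0388). Between genotypes in GMPs, *Polm* passed the filter through URE GMPs alone. The list's median was 0.02 in LSKs and 0.19 in GMPs. Most of its other genes serve general DNA repair. Of 12 other genes of the interleukin-7 receptor pathway, 0 were called by edgeR in LSKs, where 3 had an unadjusted p under 0.05 and DESeq2 called 1 (median -0.08). In GMPs 1 of 11 tested was called, *Il2rg*, the common gamma chain that pairs with the product of *Il7r*, which rose from 178 ± 47.7 to 429 ± 87.7 CPM in URE (1.27 ± 0.22, adjusted p = 0.00750). Between WT GMPs and WT LSKs 4 genes of this list fell and 1 rose, beside 27.3% of all genes called and 15.8% called lower. The target *Cish*, which STAT5 induces, fell from 20.3 ± 6.65 to 2.28 ± 1.06 CPM (-3.16 ± 0.42, adjusted p = 0.000759).

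Of 14 other genes of the receptor complex and its signalling, 8 had enough counts for the test in LSKs, and 2 were called, both lower in URE (median -0.48), where DESeq2 called 6 lower. The 2 called by edgeR were *Pik3ap1*, an adaptor that recruits PI3-kinase, between 12.7 and 27.1 CPM in URE LSKs and at 93.9 ± 37.3 in WT LSKs (-2.27 ± 0.33, adjusted p = 0.00385), and *Ptpn6*, a phosphatase that restrains the receptor and acts in myeloid cells too (-1.27 ± 0.16, adjusted p = 0.00145). *Igll1*, *Vpreb2* and *Blk* were at 0 in URE LSKs and were detected in WT LSKs. In GMPs 9 were tested and 2 called. *Cd72*, an inhibitory co-receptor, rose from 35.8 ± 5.95 to 188 ± 22.5 CPM in URE (2.38 ± 0.18, adjusted p = 0.000283), and *Ptpn6* was lower (-0.66 ± 0.17, adjusted p = 0.0432). The genotype effect on *Cd72* was larger in GMPs than in LSKs (interaction 1.63 ± 0.29, adjusted p = 0.0135).

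Of 16 other transcription factors of B cells, 14 were tested in LSKs, 2 called lower in URE and 1 higher (4 and 1 by DESeq2, median -0.22). *Tcf3*, *Ikzf1*, *Ikzf3*, *Bcl11a* and *Foxo1* are on the list of lymphoid priming too, so the call of *Bcl11a* in LSKs is counted in both. *Irf8*, which serves B cells, monocytes and dendritic cells, fell from 48.1 ± 13.4 to 5.36 ± 2.47 CPM (-3.19 ± 0.36, adjusted p = 0.000947). *Bcl11a*, needed for lymphoid development, fell from 228 ± 36.6 to 146 ± 16.5 CPM (-0.68 ± 0.16, adjusted p = 0.0394). *Lef1*, a factor of pro-B and T cells, rose from 0.129 ± 0.10 to 2.07 ± 2.13 CPM (3.9 ± 0.87, adjusted p = 0.0276), on 15 and 210 counts. It passed the filter through URE LSKs alone. In GMPs 11 were tested and DESeq2 called 4 lower. With edgeR *Irf8* (-2.51 ± 0.64, adjusted p = 0.0428) and *Bach2*, a repressor of myeloid genes in lymphoid progenitors (-1.48 ± 0.37, adjusted p = 0.0396), were lower in URE. *Bach2* had its highest mean in URE LSKs, 31.9 ± 9.15 CPM against 20.4 ± 4.46 in WT LSKs, and its genotype effect differed between the cell types (-2.12 ± 0.45, adjusted p = 0.0328).

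The 3 genes most like *Dntt* over the 16 libraries, by the root mean square difference of centred log2 CPM among 13205 genes with a mean of at least 1 CPM, were *Iigp1* (0.460), *Gm4951* (0.627) and *Ccser1* (0.645). The deviation of *Dntt* from its own mean was 2.07 on this measure. *Iigp1*, an interferon-induced GTPase, had 111 ± 20.5 CPM in WT LSKs, 35.5 ± 11.8 in URE LSKs, 8.85 ± 1.81 in WT GMPs and 3.62 ± 1.78 in URE GMPs, the same order of groups as *Dntt*. For *Blnk* they were *Isg15* (0.445), *Ncoa7* (0.527) and *Fcrl1* (0.568), against 1.26 for *Blnk* from its own mean. *Isg15*, an interferon-induced ubiquitin-like protein, had 17.2 ± 4.49 CPM in WT LSKs and 4.55 ± 1.24 in URE LSKs. *Fcrl1*, a receptor of B cells, had 6.08 ± 1.88 and 1.03 ± 0.25 CPM in the same groups.

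RNA of mature B cells and plasma cells was present in the LSK libraries, although the lineage stain removes B cells. The summed level of 5 plasma cell markers was 167, 1617, 325 and 691 CPM in URE LSKs and 366, 765, 497 and 620 CPM in WT LSKs, against 1.63 to 9.08 CPM in URE GMPs and 3.76 to 27.1 CPM in WT GMPs. Most of it was *Igkc*, the kappa light chain, with 513 ± 506 CPM in URE LSKs and 345 ± 126 in WT LSKs, and *Jchain*, which links secreted antibodies, with 177 ± 149 and 132 ± 65.2 CPM. Of these 5 markers 4 were tested in LSKs, and *Sdc1* was called, lower in URE (-3.25 ± 0.49, adjusted p = 0.00456). URE LSK replicate 2, with the highest plasma cell sum, also had the highest *Dntt*, *Rag2*, *Vpreb1* and *Cd79a* of its group. The same library had the lowest *Blnk* of the group, at 1.49 CPM, and 0 counts of *Rag1* and *Il7r*. The sum of 9 mature B-cell markers was 329 to 1470 CPM in URE LSKs, 646 to 916 in WT LSKs, 230 to 371 in URE GMPs and 351 to 482 in WT GMPs, and among URE LSKs it was lowest in replicate 3, the library without *Cd79a*. Replicate 3 also had the highest *Il7r*, *Ebf1* and *Cd79b* of the URE LSKs. In LSKs and WT GMPs most of the mature B-cell sum was *Ighm*, while in URE GMPs *Cd72* had a mean of 188 CPM and *Ighm* 96.1 CPM. The defining marker *Ms4a1* had at most 12 counts in any group. Of these 9 markers, 5 were tested in LSKs and *Ighd* was called, at 0.132 ± 0.162 CPM in URE and 6.04 ± 2.14 in WT (-5.44 ± 0.90, adjusted p = 0.00673). In GMPs 4 of the 9 were tested, with *Ighd* (-2.59 ± 0.48, adjusted p = 0.0101) and *Ighm* (-1.96 ± 0.32, adjusted p = 0.00547) lower in URE and *Cd72* higher. *Ighd* had 15 counts over URE LSKs and 23 over URE GMPs. It passed the filter through WT LSKs and WT GMPs alone, so its calls were fixed in part by that choice. The part of mature B cells and plasma cells in the levels of *Cd79a*, *Cd79b* and *Blnk* was not tested.

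Markers of plasmacytoid dendritic cells, which can express *Dntt* and recombinase genes and carry Cd45r, a protein of the lineage stain, moved with the genotype in part. The sum of 9 was 210 to 372 CPM in URE LSKs, 305 to 451 in WT LSKs, 173 to 317 in URE GMPs and 399 to 582 in WT GMPs, most of it from *Tcf4*, *Bst2* and *Irf8*. Of the 9, 6 were tested in LSKs and 2 called lower in URE, *Irf8* and *Cox6a2*, which was at 0.116 ± 0.119 CPM in URE and 6.35 ± 4.44 in WT (-5.70 ± 0.98, adjusted p = 0.00802). *Cox6a2* had 13 counts over URE LSKs and passed the filter through WT LSKs alone, so its call was fixed in part by that choice. The defining marker *Siglech* was at 0 in all 4 URE LSK libraries and had 63 counts in WT LSKs and 48 in WT GMPs. *Spib* was at 0 in both URE groups but had few counts in WT as well, 6 in LSKs and 5 in GMPs. *Klk1* was at 0 in all 16 libraries. *Ccr9*, on this list too, had the higher mean in URE LSKs, as given above, and DESeq2 called 1 of the markers higher and 3 lower in LSKs. In GMPs 4 were tested and *Irf8* was called, where DESeq2 called 4 lower and 1 higher. Their part in the differences of *Dntt*, *Rag1* and *Rag2* was not tested.

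**Figure D4:**
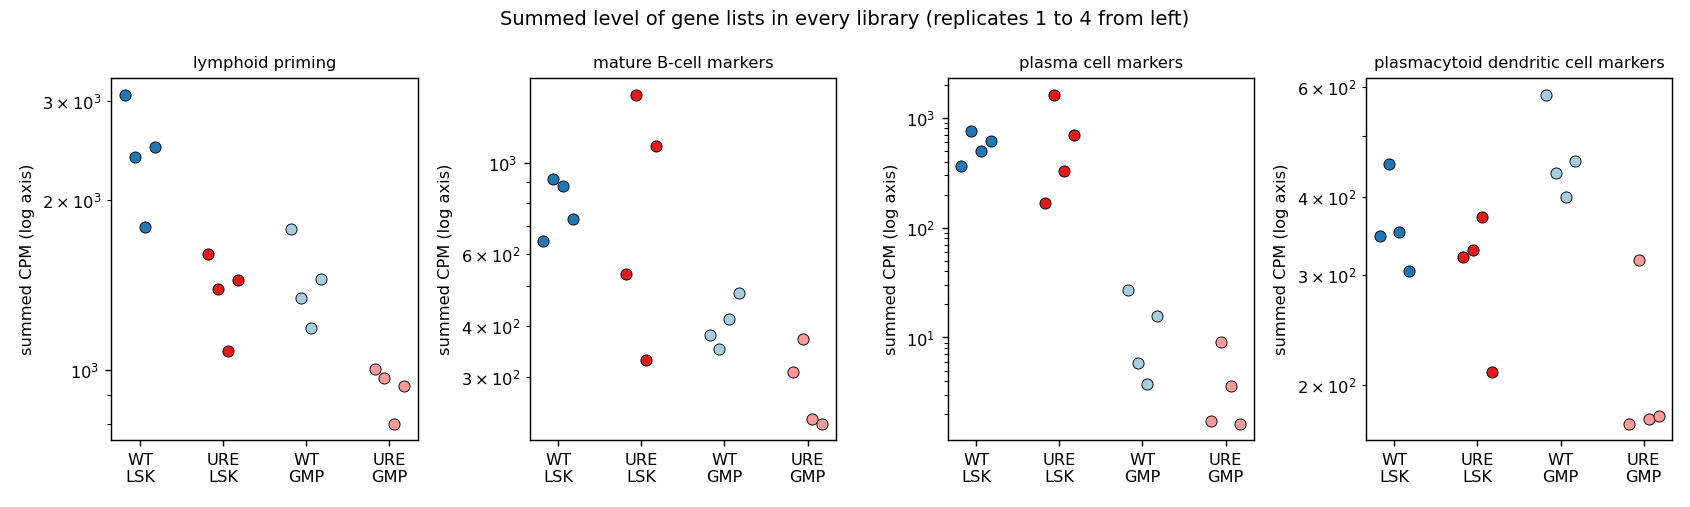
Summed CPM (y axes, logarithmic, a separate scale in each panel) of the lymphoid priming genes and of markers of mature B cells, plasma cells and plasmacytoid dendritic cells in every library, with replicates 1 to 4 from left to right in each group. The lymphoid priming sum was 1795 to 3075 CPM in WT LSKs and 1081 to 1604 in URE LSKs, without overlap, while the plasma cell sum of URE LSKs spans 167 to 1617 CPM around that of WT LSKs.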

How the data were processed

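RNA of LSKs and GMPs from 4 URE and 4 WT mice per cell type was sequenced from up to 10 ng of total RNA in unstranded libraries without molecular identifiers. The authors quantified the reads with salmon against GRCm38, summed transcripts to genes with tximport and deposited estimated counts per gene as whole numbers, not normalized, which were used as they stand. The annotation release is not given in the sources used here. Gene positions come from GENCODE M21 (54094 of 54347 identifiers matched, 253 did not) and promoters from RefSeq GRCm38.p6.

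Genes were filtered with filterByExpr, normalized by TMM and tested with edgeR 4.0.16 (limma 3.58.1, R 4.3.3) by quasi-likelihood, with Benjamini-Hochberg adjustment over all genes tested. Calls required a fold above 1.5 beside an adjusted p under 0.05, except for the interaction, where the adjusted p alone decided. Each pairwise fit used the 8 libraries compared, the interaction all 16. Standard errors derive from the log2 fold change and F. Exact permutation tests used log2 CPM (prior count 2). Pooled ratios carry exact 95% Poisson (conditional binomial) intervals. The procedure was tested on simulated data.

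Groups and replicate numbers come from the labels. Same-numbered libraries deviated together in every pair of groups compared (correlation over genes 0.282 to 0.586 for LSKs, 0.237 to 0.547 for GMPs, 0.418 to 0.711 within WT and 0.377 to 0.525 within URE), each above 0.1, so the numbers were treated as pairing the libraries in an alternative with the replicate number as a block. Libraries of different number reached 0.398, 0.385, 0.286 and 0.311 in the same 4 comparisons, and URE LSK replicate 4 correlated more with WT LSK replicate 1 (0.398) than with WT LSK replicate 4 (0.282), replicates 1 and 4 deviating together. The sources used here do not say whether LSKs and GMPs of 1 number came from 1 mouse. No 2 replicates were near-identical (chi-square per degree of freedom at least 29.6).

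The 10 genes and the lists beside them were chosen with earlier results of these data known. Named were *Spi1*, the 10 genes, from each list up to 4 called genes per comparison with the largest absolute log2 fold change, the 3 genes with the smallest root mean square difference from *Dntt* and from *Blnk*, and the nearest protein-coding gene on each side of a called gene of the 10. *Ly6d*, *Ccr9*, *Siglech* and other single genes outside this rule were named after their values were seen. Alternatives were DESeq2 1.42.0, RLE size factors, other filters, the block, no fold threshold, a joint fit, replicates 1 and 4 or 2 and 3 alone, and leaving out each library. Some members of the lists counted are not reported here by name.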

Additional observations from a re-analysis of the deposited data

Results flagged for a closer look

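*Rag1* in URE LSKs was at 0.156 CPM in replicate 1 and at 0 in the other 3 libraries, and *Il7r* in URE GMPs was at 0.145 CPM in replicate 1 and at 0 in the other 3. Each stood apart from the rest of its group by Dixon's criterion, on 4 and 3 counts. With the other 3 libraries at 0 the criterion is met whatever the value, so a single count would have met it too. Of 36 groups tested in this way 2 stood out, and chance gives about 1 in 20.

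The genotype effect on *Rag2* differed between GMPs and LSKs by 2.83 on the log2 scale in the interaction test (adjusted p = 0.0218). *Rag2* was lower in URE in 4 of 4 same-numbered pairs of LSKs and in 4 of 4 of GMPs.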

How the results depend on the processing

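Over the single-gene results, 286 kept direction and call under the alternatives that did not leave out 1 library, 16 lost the call, 12 gained it and 2 changed sign. Under leave-one-out fits 17 lost the call, 3 gained it and 9 changed sign, all uncalled. The cause of these changes was not tested. The counts of all genes called were 930 for LSKs, 1148 for GMPs, 4037 for GMPs against LSKs in WT, 3133 in URE and 194 for the interaction. DESeq2 raised them to 1631 in LSKs, 1995 in GMPs and 674 for the interaction, and called 4 of the 10 genes in URE GMPs against LSKs and 2 in the interaction. With the replicate block, all genes called were 1433 in LSKs, 2260 in GMPs and 1047 for the interaction, with 3 of the 10 genes in the last (*Rag2*, *Cd79b* and *Vpreb1*). The block changed no call of the 10 genes other than those given in the report. A joint fit of all libraries called 6 of the 10 in URE GMPs against LSKs, and a filter at a mean CPM of 1 called 2 in GMPs, where *Il7r* was no longer tested and *Blnk* missed the threshold. Replicates 1 and 4 alone called 2 of the 10 in GMPs, 4 in URE GMPs against LSKs and 0 in the interaction, where *Cd79a* turned to -4.28 and *Il7r* to 0.79. Replicates 2 and 3 alone called 3 of the 10 and 386 genes in LSKs, 0 and 108 in GMPs, 2507 genes in WT GMPs against LSKs, 1 and 810 in URE, and 0 and 2 in the interaction, on fewer libraries. Leaving out single libraries gave 3 to 5 of the 10 genes (3 without URE replicate 4 or WT replicate 2) and 565 to 961 genes in LSKs (565 without WT replicate 2, 606 without WT replicate 4), 2 to 4 (2 without replicate 4 of either genotype) and 715 to 1176 in GMPs (715 without URE replicate 4), and 84 to 283 genes for the interaction (84 without URE GMP replicate 4, and 102 to 115 without WT GMP replicate 2 or 4, URE LSK replicate 4, or WT LSK replicate 1, 2 or 4). Log2 values that changed sign ranged from -1.02 to 0.066 for *Cd79a* in LSKs and, in the interaction, from -0.58 to 0.92 for *Cd79a*, -3.79 to 1.21 for *Il7r* and -0.069 to 1.04 for *Ebf1*. Depth limits *Rag1*, *Ebf1*, *Pax5* and *Cd79a*, which did not pass the count filter for a genotype test in GMPs. A fit of every gene with a count and the joint fit tested 9 of the 10 genes there and called none of these.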

Other observations

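Genes that mark T cells and NK cells were also read, as other lymphoid programmes. Of 10 T-cell markers, 6 were tested in LSKs, 1 called higher and 2 lower in URE, and in GMPs 4 were tested and 2 called higher. *Trat1*, an adaptor of the T-cell receptor complex, rose from 1.32 ± 0.59 to 26.7 ± 10.4 CPM in URE LSKs (4.30 ± 0.43, adjusted p = 0.000519) and from 0.735 ± 0.730 to 149 ± 53.7 CPM in URE GMPs (7.68 ± 0.85, adjusted p = 0.00105). *Tcf7*, a factor of early T cells, rose in URE GMPs from 0.724 ± 0.417 to 4.30 ± 1.85 CPM (2.55 ± 0.52, adjusted p = 0.0156) and differed in its genotype effect between the cell types (3.76 ± 0.87, adjusted p = 0.0471). Between genotypes in GMPs, *Trat1* and *Tcf7* passed the filter through URE GMPs alone. *Cd4* and *Cd5* fell in URE LSKs (-3.04 ± 0.50, adjusted p = 0.00677 and -3.47 ± 0.76, adjusted p = 0.0259). *Cd5* had 14 counts over URE LSKs and passed the filter through WT LSKs alone, as did *Cd4*. The defining marker *Cd3e* had 1 count in WT LSKs and 0 in the other groups.

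Of 6 NK-cell markers, 3 were tested in LSKs and 1 called, and in GMPs 3 were tested and 2 called, all higher in URE. *Prf1*, the pore-forming protein of cytotoxic granules, was at 2.56 ± 0.81 CPM in URE LSKs and 0.608 ± 0.196 in WT LSKs (2.03 ± 0.42, adjusted p = 0.0203), and at 2.11 ± 0.65 and 0.361 ± 0.200 CPM in URE and WT GMPs (2.50 ± 0.50, adjusted p = 0.0146). In GMPs *Prf1* passed the filter through URE GMPs alone. *Nkg7*, a granule protein, was higher in URE GMPs (1.07 ± 0.22, adjusted p = 0.0169). Of 6 erythroid markers, all tested, edgeR called 0 between genotypes in either cell type (1 higher and 1 lower in LSKs at an unadjusted p under 0.05, and the same counts called by DESeq2; 0 in GMPs by both).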
